A study of Mus musculus with 36 samples.

Results

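The 9 genes described here encode the core of the Hedgehog pathway: the ligands Shh, Ihh and Dhh, the cell-surface proteins Ptch1, Smo and Hhip, and the transcription factors Gli1, Gli2 and Gli3. They were chosen by name, with earlier results of these data known, and all 9 were found among the 21938 protein-coding genes of the annotation. Chromatin immunoprecipitation sequencing (ChIP-seq) had been carried out on mouse hippocampus at P0, the day of birth, and on neurospheres, hippocampal neural progenitor cells (NPCs) that grow as free-floating spheres with FGF2 and EGF (20 ng/mL each). Control (Ctrl) animals were Kdm2bfl/+ or Kdm2bfl/fl and carried the intact KDM2B protein. The cKO animals (Kdm2bEmx1-delta-CxxC) had lost the CxxC zinc finger of KDM2B, the part that binds unmethylated CpG-rich DNA, through Emx1-Cre. Emx1-Cre acts in progenitors of the dorsal telencephalon, so that cells of other origin in the hippocampus keep the domain. Each mark, source and genotype had 2 libraries, which made 24 libraries with islands, and the labels do not say whether these came from separate animals, so the p-values measure only the spread between libraries.

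Hedgehog ligands bind Ptch1, which otherwise holds Smo inactive, and active Smo turns the Gli factors into activators of transcription. Hhip binds the ligands and limits their reach, and Ptch1, Hhip and Gli1 are themselves targets of the pathway. Shh maintains neural stem cells of the postnatal hippocampus, while Ihh and Dhh are known for their roles in cartilage and bone and in the testis and peripheral nerve. Polycomb complexes mark silent developmental genes: PRC1 places H2AK119ub1 and PRC2 places H3K27me3. H3K36me2 is a mark of transcribed and intergenic chromatin that opposes PRC2, and KDM2B can remove its methyl groups.

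The values are islands, that is broad stretches in which a library holds more reads than its input. Coverage is the share of a promoter (from 2 kb before to 2 kb after the annotated transcription start, TSS) or of a gene that lies inside islands, and the deposited count of an island is the number of reads in it. A promoter without an island has an unknown count, not a count of 0. Reads summed over all islands of a library ranged from 987329 to 22021439. In hippocampal H2AK119ub1 they spanned 6.89-fold, and cKO replicate 1 (987329 counts) had no island at any of the 9 promoters. In neurosphere H3K27me3 they spanned only 1.29-fold. Of 7 regulators of non-neural lineages, such as Gata4 and Myod1, all 7 carried a promoter H3K27me3 island in both Ctrl libraries of either source. Of 8 neural identity genes, such as Sox2, 1 did so in hippocampus and 2 in neurospheres. In bulk chromatin, a mark in fewer cells and less of the mark per cell cannot be told apart.

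In mm10 coordinates, the ligand genes lie at chr5:28456815-28467256 (Shh), chr1:74945315-74951672 (Ihh) and chr15:98891152-98898540 (Dhh), all on the minus strand, and span 6.36 to 10.4 kb. Ptch1 lies at chr13:63508328-63573598 on the minus strand, Smo at chr6:29735503-29761365 on the plus strand and Hhip at chr8:79965851-80058006 on the minus strand. Gli1 lies at chr10:127329882-127341974 and Gli2 at chr1:118834132-119053619, both on the minus strand, and Gli3 at chr13:15463235-15730026 on the plus strand. Gli2 and Gli3 are the longest, at 219 and 267 kb, so that a promoter island covers only a small share of the gene. Promoters of the genes with the widest and the narrowest H3K27me3 promoter island of each role are shown, since KDM2B binds CpG-rich DNA through the domain removed in cKO. They are the 250 bases before the start in RefSeq (GRCm38.p6), 5′ to 3′ along the gene, with every CG in capitals. Shh and Gli1 are named only.
Ihh, chr1:74951673-74951922, minus strand: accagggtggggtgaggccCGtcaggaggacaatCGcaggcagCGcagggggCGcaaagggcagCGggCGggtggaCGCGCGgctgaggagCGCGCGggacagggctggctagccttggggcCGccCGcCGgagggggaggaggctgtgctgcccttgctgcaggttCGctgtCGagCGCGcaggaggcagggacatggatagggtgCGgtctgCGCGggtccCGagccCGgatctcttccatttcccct
Dhh, chr15:98898541-98898790, minus strand: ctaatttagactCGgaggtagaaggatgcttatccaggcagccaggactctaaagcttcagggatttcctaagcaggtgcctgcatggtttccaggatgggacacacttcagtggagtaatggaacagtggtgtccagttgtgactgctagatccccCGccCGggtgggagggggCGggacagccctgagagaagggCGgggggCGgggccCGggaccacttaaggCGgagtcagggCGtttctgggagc
Ptch1, chr13:63565736-63565985, minus strand: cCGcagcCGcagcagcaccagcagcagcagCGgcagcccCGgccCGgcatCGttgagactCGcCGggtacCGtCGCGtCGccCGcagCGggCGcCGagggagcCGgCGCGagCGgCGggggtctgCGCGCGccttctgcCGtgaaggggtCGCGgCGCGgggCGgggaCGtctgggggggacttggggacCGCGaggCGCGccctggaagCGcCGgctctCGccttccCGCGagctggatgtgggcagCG
Smo, chr6:29735247-29735496, plus strand: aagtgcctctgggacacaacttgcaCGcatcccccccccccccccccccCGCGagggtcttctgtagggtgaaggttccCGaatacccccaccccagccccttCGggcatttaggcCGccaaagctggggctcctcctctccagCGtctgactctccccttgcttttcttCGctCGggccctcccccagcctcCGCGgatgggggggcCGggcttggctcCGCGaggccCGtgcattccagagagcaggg
Gli2, chr1:119053620-119053869, minus strand: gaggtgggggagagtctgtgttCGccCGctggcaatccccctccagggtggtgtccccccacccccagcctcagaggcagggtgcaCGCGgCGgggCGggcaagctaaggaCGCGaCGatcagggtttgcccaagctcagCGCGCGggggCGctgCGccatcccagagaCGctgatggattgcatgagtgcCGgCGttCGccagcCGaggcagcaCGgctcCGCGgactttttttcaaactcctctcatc

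The printed windows hold 24 CG (Ihh), 9 (Dhh), 41 (Ptch1), 15 (Smo) and 22 (Gli2), against a median of 6.0 over 32851 RefSeq promoters. Dhh, the ligand with the narrowest island, thus had the fewest CG of the 5 printed, and Ptch1 had more than almost any promoter, with 99.1% of windows holding as many or fewer. For Ptch1 the RefSeq start lies 7.86 kb inside the GENCODE gene, and coverage refers to the GENCODE start. Hhip and Gli3, not printed, hold 28 and 34 CG. Shh and Gli1 have no window. In 1 kb around the GENCODE start, the ratio of observed to expected CG was 0.55 for Shh and 0.54 for Gli1. That ratio was 0.48 for Dhh, 0.59 for Hhip and 0.60 to 0.93 for the other members. The Gli binding motif GACCACCCA, searched on both strands from 250 bases before to 50 bases after the start, was in none of the 7 members with a window and in 0.253% of all windows.

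The first question was where the Polycomb marks lie on the pathway in control chromatin. In neurospheres 7 of the 9 promoters had an H3K27me3 island in both Ctrl libraries, all except Ptch1 and Hhip, while 23.9% of all promoters did. In hippocampus 5 of 9 did (Shh, Ihh, Dhh, Ptch1 and Gli1; 10.5% of all promoters). H2AK119ub1 islands were called in both Ctrl libraries at 6 of 9 promoters in hippocampus (Shh, Ihh, Dhh, Ptch1, Gli1 and Gli3; 4.68% of all promoters) and at 4 of 9 in neurospheres (Ihh, Dhh, Gli1 and Gli3; 11.7%). The ligands thus carried H3K27me3 in Ctrl of both sources. Gli2 and Gli3 carried it in Ctrl neurospheres and in no Ctrl hippocampus library.

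**Figure D1:**
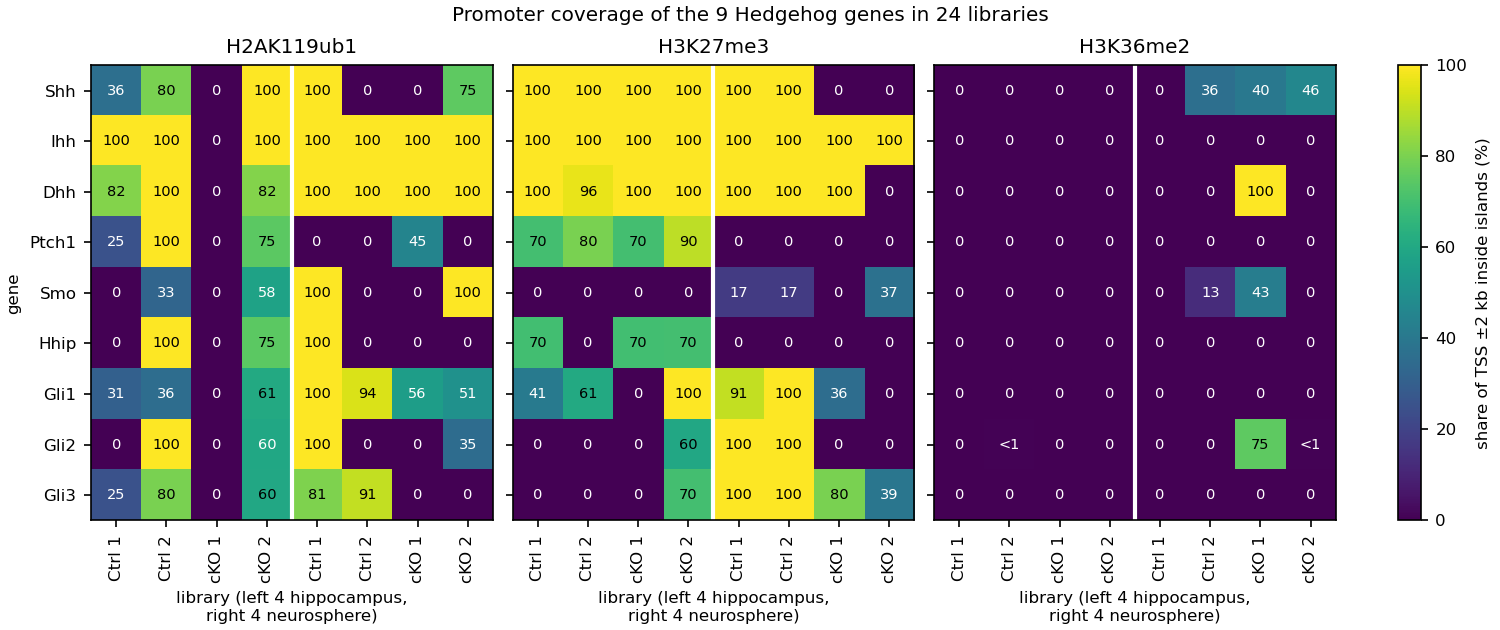
Share of each promoter (TSS ± 2 kb) inside islands, in percent, for 9 genes (rows) and 24 libraries (columns), 1 panel per mark, with hippocampus left and neurospheres right of the white line. In neurosphere H3K27me3, Shh and Gli2 went from 100% in both Ctrl libraries to 0% in both cKO libraries, and hippocampal H2AK119ub1 cKO replicate 1 is at 0% throughout.

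Removal of the CxxC domain was then compared with control, mark by mark, beginning with H3K27me3 in neurospheres, where most promoters of the pathway were covered in Ctrl. Promoter coverage of both cKO libraries lay below both Ctrl libraries for 4 of the 9 genes (Shh, Gli1, Gli2 and Gli3), while 5.33% of all promoters behaved so. A promoter can lie below only where both Ctrl libraries have an island, as 7 of the 9 did. Among all promoters 5245 had such islands, and 1170 of these lay below. Promoter coverage lay above for 0 of 9 (3.43% of all promoters). The Shh and Gli2 promoters had islands in Ctrl 1 and Ctrl 2 but in no cKO library, as had 1.75% of all promoters (383 of those 5245). Within 1 kb of the start, 3 of the 9 lay below, all but Gli3 of the 4, and the share of all promoters was not determined there. Averaged over the 9 genes, promoter coverage was 67.6% and 68.6% for Ctrl, against 35.1% and 19.6% for cKO. Over all 21938 promoters it was 19.5% and 19.4% in Ctrl, against 19.5% and 16.8% in cKO. CpG-rich promoters (GC above 50% and observed to expected CG above 0.6 in 1 kb) were lower in both cKO libraries too. Their mean was 15.8% and 15.5% in Ctrl, against 13.4% and 11.8% in cKO. With 2 libraries against 2, the smallest p that an exact permutation test can give is 0.333, so no single promoter could pass it.

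Among the ligands, only Shh separated the genotypes in promoter coverage. The Shh promoter was covered to 100% in both Ctrl libraries, by islands of 16.8 and 21.0 kb with 84.0 and 63.4 counts per kb, and to 0% in both cKO libraries. The gene itself stayed partly covered, at 100% of its length in Ctrl against 63.2% and 66.9% in cKO. The cKO islands began 2.66 and 3.46 kb inside the gene, and cKO replicate 1 had a further island from 7.94 to 3.35 kb before the start, so that the stretch around the start itself was left out. The groups did not overlap in either measure.

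Ihh was covered to 100% in all 4 neurosphere libraries. Its island was 148 and 31.8 kb wide in Ctrl, against 35.6 and 105.8 kb in cKO, so that its width varied as much within a genotype as between them. Counts per kb of these islands were 117 and 106 in Ctrl and 83.5 and 83.2 in cKO. Over all islands of the same libraries they were lower in cKO too, at 60.2 and 52.3 in Ctrl and 43.2 and 42.0 in cKO. The widest of the Ihh islands also covered the starts of Cdk5r2, Fev, Cryba2 and Cfap65, so that its counts are not those of Ihh alone. Dhh was at 100% in both Ctrl libraries and cKO replicate 1 and at 0% in cKO replicate 2, where the nearest island lay 93.5 kb away. Gene coverage of Dhh did not overlap, at 80.4% and 100% in Ctrl, against 61.4% and 0% in cKO. The share of all genes that differed so was not determined. The Dhh promoter islands measured 8.8 and 11.6 kb in Ctrl and 7.2 kb in cKO replicate 1. Those Dhh islands held the start of Rhebl1 too.

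Of the membrane and ligand-binding proteins, Ptch1 and Hhip had no H3K27me3 island in their promoters in any neurosphere library. Smo, the signal transducer, had 17.4% of its promoter covered in both Ctrl libraries, 0% in cKO replicate 1 and 37.5% in cKO replicate 2. These islands lay before the start and ended 0.503 to 2.50 kb from it. The Smo values of the genotypes overlapped.

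All 3 Gli genes had less promoter coverage in both cKO libraries. For Gli1, the amplifier of the pathway, the promoter was covered to 90.7% and 100% in Ctrl and to 35.7% and 0% in cKO. Gene coverage of Gli1 was 100% and 93.4% in Ctrl, against 83.7% and 55.6% in cKO, and islands that ran from 3.57 or 5.37 kb inside the gene past its end were called in cKO. In Ctrl replicate 1 the Gli1 island also held the start of Arhgap9. For Gli2, the main activator, the promoter was at 100% in both Ctrl libraries, by islands of 6.4 and 7.4 kb with 381 and 330 counts, and at 0% in both cKO libraries. Gene coverage of Gli2 was 31.2% and 31.4% in Ctrl, against 20.8% and 2.19% in cKO. For Gli3, the main repressor, the promoter was at 100% in both Ctrl libraries and at 80% and 39.1% in cKO. The Gli3 islands were 12.4 and 5.2 kb wide in Ctrl, against 3.2 and 2.8 kb in cKO. Neither the promoter nor the gene values overlapped between the genotypes for any of the 3.

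**Figure D2:**
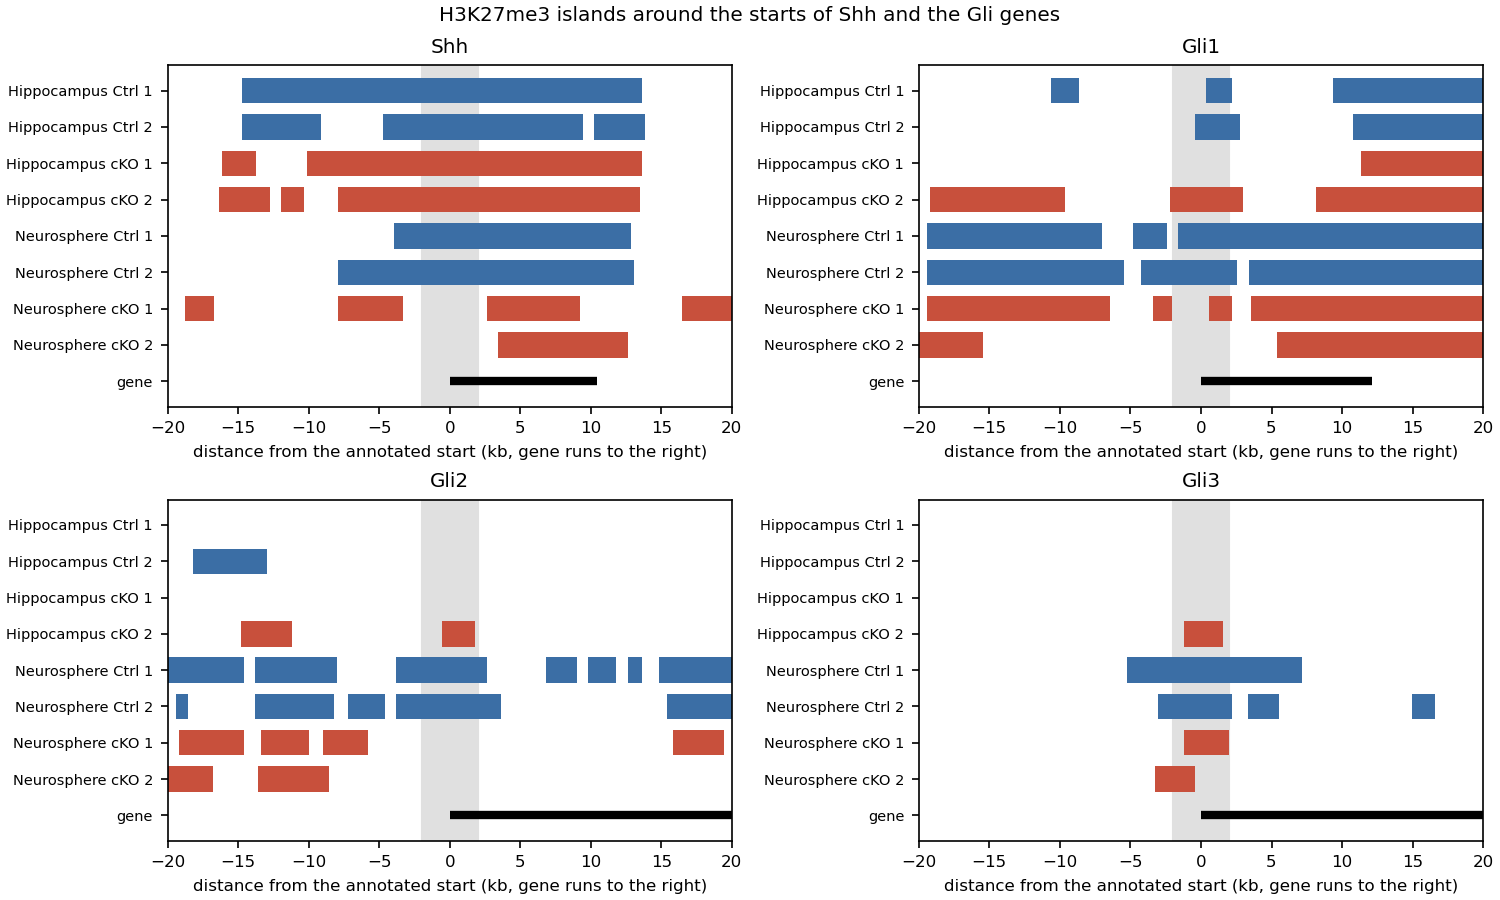
H3K27me3 islands within 20 kb of the annotated start of Shh, Gli1, Gli2 and Gli3; each bar is an island of 1 library (blue Ctrl, red cKO), the grey band is TSS ± 2 kb and the black bar the gene. In the bottom 2 rows of each panel (neurosphere cKO) the grey band is empty for Shh and Gli2, partly filled in cKO replicate 1 and empty in cKO replicate 2 for Gli1, and partly filled in both for Gli3.

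Counts gave a second measure, which can be tested. Islands of the 4 libraries were merged into regions, and regions called in all 4 were tested with edgeR. In neurosphere H3K27me3, 11262 regions were tested and 5 of them touched a promoter of the pathway (Shh, Ihh, Smo, Gli1 and Gli3). The Shh region (chr5:28454201-28475200) held 1411 and 1331 counts in Ctrl, against 419 and 336 in cKO. Both cKO values thus lay far below both Ctrl values. The Gli3 region (chr13:15458001-15470400) held 830 and 481 counts in Ctrl, against 159 and 96 in cKO. The Gli1 region (chr10:127313601-127346800) held 3074 and 2428 counts in Ctrl, against 1552 and 1205 in cKO, and runs past the end of the gene. The Ihh region (chr1:74819401-74988400, 169 kb) held 18073 and 14163 counts in Ctrl, against 11164 and 11371 in cKO. The genotypes overlapped in none of these 4 regions.

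None of these regions passed the threshold of the test. The log2 fold change of cKO against Ctrl was -1.86 ± 0.28 (SE) for Shh, with an adjusted p of 0.175 in edgeR. It was -2.31 ± 0.42 for Gli3 (adjusted p of 0.175 in edgeR), -0.98 ± 0.23 for Gli1 (0.191) and -0.51 ± 0.14 for Ihh (0.200). These 4 of the 5 regions had unadjusted p-values under 0.05, all lower in cKO (0.000986 for Shh, 0.00249 for Gli3, 0.00791 for Gli1 and 0.0137 for Ihh, edgeR). Of all 11262 regions, 18.4% had such a p, and 0 (0%) passed an FDR of 0.05. Regions with such a p that were lower in cKO made up 8.94% of all regions, about as many as those that were higher. The Gli2 promoter region, with islands in Ctrl only, and the Dhh region, with islands in 3 libraries, could not be tested. The outcome depended on the tool and on 1 library: DESeq2 called Shh (adjusted p of 0.000117) and Gli3 (adjusted p of 0.000118), and leaving out cKO replicate 1 brought Shh, Ihh, Gli1 and Gli3 below an adjusted p of 0.05 in edgeR (0.00966, 0.0430, 0.00941 and 0.00966), with 2853 of all regions called. In that fit the cKO arm was 1 library, assumed to vary like the 2 Ctrl libraries, which alone gave the spread. The fold of a region joins called length and read density, and for density alone the log2 difference was -0.70 for Shh, -0.39 for Gli3, -0.26 for Gli1 and -0.20 for Ihh (limma, adjusted p of 0.244, 0.469, 0.481 and 0.556).

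**Figure D3:**
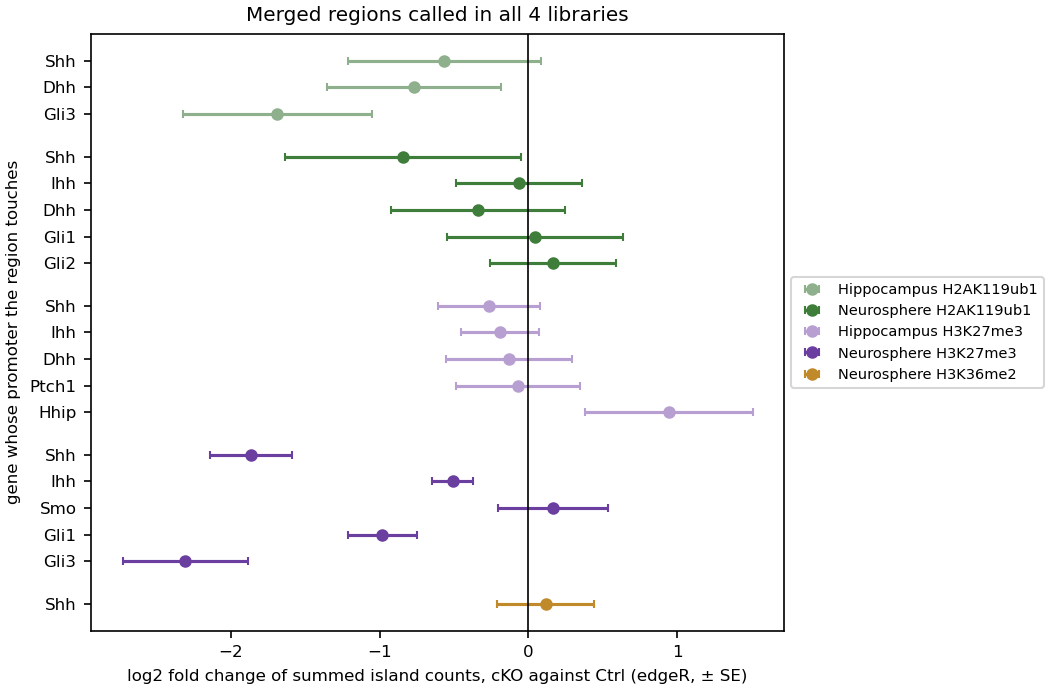
Log2 fold change of summed island counts, cKO against Ctrl (x axis, edgeR, bars ± SE), for each merged region that touches a promoter of the pathway and was called in all 4 libraries (y axis), coloured by source and mark. In neurosphere H3K27me3 the points of Shh, Gli3, Gli1 and Ihh lie below 0 by more than their SE, and no point in the plot passed an FDR of 0.05.

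H2AK119ub1 in neurospheres separated fewer of the genes. Promoter coverage was below Ctrl in both cKO libraries for 2 of 9 genes, Gli1 and Gli3 (3.75% of all promoters), and above for 0 of 9 (2.13%). Of the 9, 4 had an island in both Ctrl libraries, as had 2562 of all promoters, 823 of which lay below. The Gli3 promoter was covered to 80.9% and 90.9% in Ctrl and to 0% in both cKO libraries. Its islands had 210 and 305 counts. The Gli1 promoter was at 100% and 94.3% in Ctrl and at 55.6% and 50.6% in cKO, with islands of 6.8 and 8.6 kb in Ctrl, against 2.6 kb in both cKO libraries. Gli1 and Gli3 were thus the members with lower promoter coverage in both cKO libraries for both Polycomb marks. For H2AK119ub1 the gene coverage of Gli1 overlapped, at 93.4% and 14.7% in Ctrl, against 70.2% and 93.4% in cKO. Counts of its merged region overlapped too, at 993 and 298 in Ctrl, against 338 and 558 in cKO.

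The ligands Ihh and Dhh were at 100% for H2AK119ub1 in all 4 neurosphere libraries. Shh was at 100% and 0% in Ctrl and at 0% and 75% in cKO, so that its replicates disagreed within each genotype. The same held for Smo (100% and 0% in Ctrl, 0% and 100% in cKO) and Gli2 (100% and 0% in Ctrl, 0% and 35.5% in cKO). The Ptch1 promoter was covered in cKO replicate 1 alone (45.0%) and the Hhip promoter in Ctrl replicate 1 alone (100%). Ctrl replicate 1 held 17734396 counts in islands and Ctrl replicate 2 5025115, and the part of this gap in the disagreement was not tested. Of the 5 regions tested with edgeR (Shh, Ihh, Dhh, Gli1 and Gli2), 0 passed an FDR of 0.05 and 0 had an unadjusted p under 0.05, against 0% and 1.67% of all 6060 regions. DESeq2 called 0 of the 5 too.

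In hippocampus promoter coverage separated the genotypes for none of the 9 genes with either Polycomb mark. For H3K27me3, 0 of 9 lay below (0.793% of all promoters) and 0 of 9 above (3.62%). For H2AK119ub1, 0 of 9 lay below (0.483%) and 0 of 9 above (0.579%). The Shh and Ihh promoters were covered to 100% by H3K27me3 in all 4 hippocampus libraries, and Dhh to between 96.5% and 100%. The Shh islands were 28.4 and 14.2 kb wide in Ctrl, against 23.8 and 21.4 kb in cKO. The Ptch1 promoter was at 70% and 80.05% in Ctrl and at 70% and 90.05% in cKO, in a region (chr13:63568201-63582000) that does not reach the window printed for Ptch1. The Hhip promoter was at 69.8% and 0% in Ctrl and at 69.8% and 70% in cKO, and Smo was at 0% throughout. The width of the H3K27me3 promoter island did separate the genotypes for 2 genes, both wider in cKO. The share of all promoters separated so by width was not determined. For Hhip it was 3.2 and 0 kb in Ctrl, against 10.6 and 9.0 kb in cKO, and for Dhh 8.2 and 9.6 kb in Ctrl, against 14.0 and 11.2 kb in cKO. Gli1 was at 40.6% and 60.6% in Ctrl and at 0% and 100% in cKO. Gli2 and Gli3 were covered in cKO replicate 2 alone, to 60% and 70%.

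For hippocampal H2AK119ub1 the range between replicates was wide. Ihh was at 100% in both Ctrl libraries, 0% in cKO replicate 1 and 100% in cKO replicate 2, and Shh at 36.4%, 80.0%, 0% and 100% in the same order. The other 7 genes lay between 0% and 100% in Ctrl and between 57.5% and 81.5% in cKO replicate 2. Without cKO replicate 1 the mean over the 9 promoters was 17.3 percentage points higher in cKO than in Ctrl, and with it 19.9 percentage points lower. Without Ctrl replicate 2 it was 3.99 percentage points higher in cKO, so that 2 libraries decided the direction.

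In edgeR, the Gli3 H2AK119ub1 region in hippocampus (13.4 kb; 155 and 270 counts in Ctrl, against 52 and 93 in cKO) had a log2 fold change of -1.69 ± 0.64 (unadjusted p of 0.0128, adjusted p of 0.999). It was 1 of 3 regions tested at the pathway's promoters, and 1.09% of all 2750 regions had an unadjusted p under 0.05. 0 of the 3 passed an FDR of 0.05, and neither did any other region (0%). The density of the Gli3 islands alone differed by 0.22 (log2), in the opposite direction (limma, adjusted p of 0.998). DESeq2 called 0 of the 3. For H3K27me3 in hippocampus 5 regions were tested (Shh, Ihh, Dhh, Ptch1 and Hhip), of which 0 passed an FDR of 0.05 and 0 had an unadjusted p under 0.05, against 0% and 3.53% of 4387 regions. DESeq2 called 0 of the 5.

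Whether the H3K27me3 difference between the genotypes itself differed between neurospheres and hippocampus was tested for the 3 genes whose region was called in all 8 libraries, with a test chosen after the data had been seen. The difference of log2 fold changes, neurospheres minus hippocampus, was -1.22 ± 0.48 for Shh (unadjusted p of 0.0335, adjusted p of 0.427, edgeR). It was -0.16 ± 0.56 for Gli1 and 0.05 ± 0.29 for Ihh, with adjusted p-values of 0.942 and 0.965 in edgeR. No difference between the sources was thus called for any of the 3, beside 0 (0%) of the 2373 regions, 10.9% of which had an unadjusted p under 0.05. For H2AK119ub1 the same test called none of Shh, Dhh and Gli2 (adjusted p of 0.998 each, edgeR), beside 0 (0%) of 1555 regions, 1.41% of which had an unadjusted p under 0.05.

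H3K36me2 islands were sparse at these promoters. In hippocampus the promoters had no island, apart from an island of 4.8 kb that reached 0.475% of the Gli2 promoter in Ctrl replicate 2. In neurospheres both cKO libraries exceeded both Ctrl libraries in promoter coverage for Shh and Gli2, 2 of the 9 (2.08% of all promoters). The Shh promoter was at 0% and 36.4% in Ctrl and at 40.0% and 46.4% in cKO, and the Gli2 promoter at 0% in both Ctrl libraries and at 75% and 0.475% in cKO. Within 1 kb of the start neither gene was higher in both cKO libraries. The Dhh promoter was covered in cKO replicate 1 alone, to 100%, and Smo to 12.6% in Ctrl replicate 2 and 42.5% in cKO replicate 1. Over all promoters, mean coverage was 22% in cKO replicate 1 and 3.95% to 10.4% in the other 3 neurosphere libraries. Of all regions only the Shh region (18.6 kb; 752 and 732 counts in Ctrl, against 734 and 505 in cKO) could be tested at these promoters. It did not pass (0 of 1, unadjusted p of 0.737, edgeR), as did none of the 34454 regions at an FDR of 0.05 (0%), 2.14% of which had an unadjusted p under 0.05.

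Inside the genes, H3K36me2 covered Gli2 to 41.6% and 30.3% in Ctrl hippocampus, 42.8% and 32.5% in cKO hippocampus, 85.2% and 83.6% in Ctrl neurospheres and 90% and 39.7% in cKO neurospheres. Gli2 was the only member with over 20% of its length inside H3K36me2 islands in all 8 libraries of the mark. Gli3, of similar length, was at 1.27% to 12.2% in hippocampus and 3.37% to 11.5% in neurospheres. Hhip was at 0% to 3.04% in hippocampus and 18.4% to 28.8% in neurospheres. Ihh had no H3K36me2 island in any library.

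**Figure D4:**
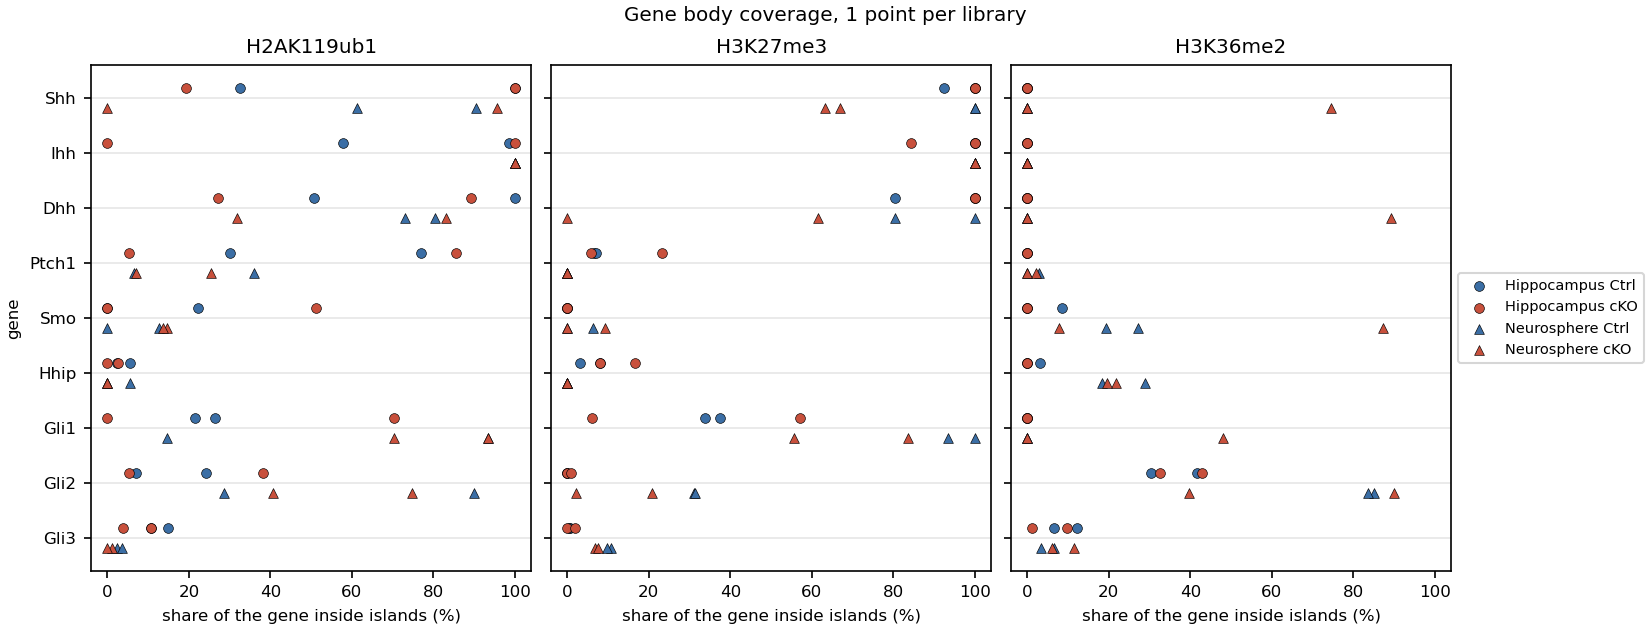
Share of each gene inside islands (x axis, percent) for the 9 genes (y axis), 1 point per library, circles for hippocampus and triangles for neurospheres, blue for Ctrl and red for cKO. For H3K36me2, Hhip lies at or below 3.04% in hippocampus and at or above 18.4% in neurospheres.

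The sources were compared over 4 libraries each, with both genotypes in either. For H3K27me3, the Ptch1 promoter was covered to 77.5% ± 9.6 in hippocampus (SD, n = 4) and to 0% in all 4 neurosphere libraries (exact permutation test, two-sided, p = 0.0286, the smallest that 4 against 4 can give; adjusted over 27 tests, 0.551). It was the only 1 of the 9 promoters below in all 4 neurosphere libraries (1.25% of all promoters). In neurosphere Ctrl replicate 2 an H3K27me3 island lay just outside it, 2.003 kb from the Ptch1 start. For gene bodies, Ptch1 and Hhip lay below in all 4 neurosphere libraries (1.61% of all genes) and Gli2 and Gli3 above (10.7%). Coverage of Ptch1 was 5.82% to 23.3% in hippocampus and 0% in neurospheres, and that of Hhip 3.04% to 16.5% and 0%. Coverage of Gli2 was 0% to 0.829% in hippocampus and 2.19% to 31.4% in neurospheres, and that of Gli3 0% to 1.86% and 6.73% to 10.7%. Each gave an exact permutation p of 0.0286 and an adjusted p of 0.129, as did Gli3 for H2AK119ub1 (3.75% to 14.9% in hippocampus, 0% to 3.51% in neurospheres; 0.501% of all genes below) and Hhip for H3K36me2 (16.6% of all genes above). Neurosphere libraries held more island length than hippocampus libraries for H3K27me3, 268 to 321 Mb against 54.9 to 160 Mb. With all 8 libraries held to the same covered length, Ptch1 and Hhip still lay below, while Gli2 and Gli3 no longer lay above, and for H3K36me2 Hhip no longer lay above and Gli3 lay below. With islands of at least 2 kb, Gli3 no longer lay below for H2AK119ub1. The Ihh promoter island for H2AK119ub1 was 0 to 14.2 kb wide in hippocampus and 17.2 to 27.2 kb in neurospheres (exact permutation p of 0.0286, adjusted p of 0.386).

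In edgeR, with genotype as a term, 3 regions at promoters of the pathway were tested between the sources for each Polycomb mark. For H3K27me3 the Shh region (30.2 kb) held 1321, 1003, 1431 and 2013 counts in hippocampus (Ctrl 1, Ctrl 2, cKO 1, cKO 2) and 1411, 1331, 419 and 336 in neurospheres. Its log2 fold change, neurospheres against hippocampus, was -2.34 ± 0.33 (adjusted p of 0.000616, edgeR), relative to libraries whose counts were larger in neurospheres. It was the 1 called of 3, beside 42.5% of all 2373 regions. With the Ctrl libraries alone its value was -1.44, and it was still called. For density alone it was -0.52 and not called. Dhh joined it without neurosphere cKO replicate 2, where its region had no island (log2 fold change of -1.52, adjusted p of 0.00821, edgeR). For H2AK119ub1 the Gli2 region (110 kb) held 228, 690, 112 and 1181 counts in hippocampus and 6267, 1799, 2248 and 3802 in neurospheres. Its log2 fold change was 1.32 ± 0.36 (adjusted p of 0.0219, edgeR), 1 called of 3 beside 20.5% of 1555 regions. For density alone the Gli2 difference was 0.15 and not called. The Gli2 call was also lost with the Ctrl libraries alone and without any 1 of hippocampus Ctrl replicates 1 or 2, hippocampus cKO replicate 1, neurosphere Ctrl replicate 1 or neurosphere cKO replicate 1 (log2 fold changes of 1.45, 1.38, 1.26, 1.09, 1.23 and 1.30), all still positive. Without hippocampus cKO replicate 1, a region other than that of Gli2 was called, 1 of the 5 then tested, beside 13.4% of 2285 regions. No region at these promoters was called in all 8 H3K36me2 libraries.

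Other genes of the pathway were described by the same measures. Of 16 further components (co-receptors, ligand release and processing, and regulators of the Gli factors), 6 had a promoter H3K27me3 island in both Ctrl neurosphere libraries (23.9% of all promoters), and 1 lay below in both cKO libraries, a share near the 5.33% of all promoters. That was Cdon, a co-receptor for the ligands, at 100% and 91.8% in Ctrl and 46.8% and 26.8% in cKO. The widest islands were those of Scube3 and Scube1, secreted proteins of a family that releases Hedgehog ligands. Scube3 was at 100% in all 4 libraries, with islands of 86.8 and 88.8 kb in Ctrl, against 53.2 and 36.2 kb in cKO. Scube1 was at 100% too, with 48.6 and 43.0 kb in Ctrl, against 32.6 and 11.2 kb in cKO. Scube2, of the same family and also at 100%, was wider in cKO, with 14.0 and 18.0 kb in Ctrl, against 27 and 19.8 kb in cKO. Over the 16, the island was narrower in both cKO libraries for 3 (Cdon, Scube1 and Scube3) and wider for 1 (Scube2). The share of all promoters that differed so in width was not determined. The median of the 16 was 4.54% in Ctrl and 0% in cKO. For neurosphere H2AK119ub1, 4 of the 16 lay below in cKO (Gas1, Lrp2, Scube3 and Spop; 3.75% of all promoters) and 0 above (2.13%). An island of that mark was called in both Ctrl libraries at 9 of the 16 (11.7% of all promoters). In hippocampal H3K27me3, 1 lay below (Scube3, at 83.5% and 73.5% in Ctrl, against 0% and 63.5% in cKO; 0.793% of all promoters).

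Of 12 genes known as targets of the pathway, among them transcription factors of the ventral neural tube and of mesenchyme and genes of proliferation, 9 had a promoter H3K27me3 island in both Ctrl neurosphere libraries (23.9% of all promoters) and 11 in both Ctrl hippocampus libraries (10.5%). The median promoter coverage was 100% in both genotypes of both sources. Foxl1 had the widest islands in Ctrl neurospheres, at 124 and 71.4 kb, against 95.6 and 59.8 kb in cKO. Nkx6-2 and Foxf1 followed with the same mean. For Nkx6-2 the islands were 60.2 and 50.4 kb wide in Ctrl, against 33.0 and 17.4 kb in cKO, and for Foxf1 54.6 and 56.0 kb, against 53.6 and 53.8 kb. Foxa2 went the other way, with 29.2 and 22.2 kb in Ctrl, against 73.0 and 78.6 kb in cKO. Over the 12, the island was narrower in both cKO libraries for 3 (Nkx6-2, Foxf1 and Mycn) and wider for 3 (Nkx2-1, Nkx6-1 and Foxa2). Here too, the share of all promoters was not determined for width. The 1 target below in both cKO libraries was Mycn, a driver of progenitor proliferation, at 100% in both Ctrl libraries and 47.1% and 0% in cKO (5.33% of all promoters lay below). Mycn and Nkx2-2 were the 2 of 12 that lay below for neurosphere H2AK119ub1 (3.75% of all promoters), and 0 lay above (2.13%). For that mark 9 of the 12 had an island in both Ctrl libraries (11.7% of all promoters). Both lists were put together with earlier results of these data known. In hippocampus 0 of the 12 lay below for H3K27me3 (0.793%) or H2AK119ub1 (0.483%).

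Finally, the genes whose island widths followed each member most closely over the 24 libraries were sought at more than 0.5 Mb from it, as a description, since all libraries share depth and mark. For Shh these were Ank1 and Rtn4rl1 (Pearson r of log2 width of 0.90 and 0.86), and for Ihh Ripk4 and Tbx20 (0.98 and 0.97). Ptch1 was closest to Lrig3 and Ado (0.95 and 0.93), and Hhip, with islands in only 6 libraries, to Kitl and Meis2 (0.92 and 0.91). Gli1 was closest to Kdelr1 (0.91), Gli3 to Cadps2 (0.91) and Gli2 to Ezr (0.84). None of these partners belongs to the pathway.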

How the data were processed

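ChIP-seq of H2AK119ub1, H3K27me3 and H3K36me2 was available as 24 island files of 36 samples; the 12 inputs were not analysed here. Per the study's methods and the labels, the authors trimmed reads with cutadapt, aligned them to mm10 with Bowtie2 2.4.5, used samtools to drop duplicates, and ran SICER (version not given in the sources used here) per library against its input (windows of 200 bp, gaps up to 600 bp, FDR 0.01). The deposited value is the raw read count per island, with no normalization by the authors. Reads outside islands were not used here, so the sum over islands is not the depth and its precision is limited by what was called; islands on chrM (9 in all) were left out.

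Groups came from the labels. Genes and starts were those of GENCODE vM21. Coverage was compared by exact permutation tests (two-sided). Islands of the libraries compared were merged where they overlapped or touched by at least 1 bp, and for regions called in every library edgeR 4.0.16 (R 4.3.3; quasi-likelihood F test, TMM factors) gave p-values, adjusted by Benjamini-Hochberg over all regions; the SE is the fold change divided by the root of the F statistic. DESeq2 1.42.0 and limma 3.58.1 were alternatives. The scripts were tested on simulated data. Fold changes are printed for members with an unadjusted p under 0.05; of the 2 lists of other pathway genes, at most 4 each are named by island width or where genotypes did not overlap, and further names of genes that did not overlap were added after their values were seen. Members and lists were chosen with earlier results of these data known. Some values of genes in these lists are not reported here.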

Additional observations from a re-analysis of the deposited data

Results flagged for a closer look

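The width of the Dhh promoter H3K27me3 island moved in opposite directions in the 2 sources, with every cKO library on 1 side of every Ctrl library. In hippocampus it was 8.2 and 9.6 kb in Ctrl, against 14.0 and 11.2 kb in cKO, a difference of 3.7 kb. In neurospheres it was 8.8 and 11.6 kb in Ctrl, against 7.2 and 0 kb in cKO, a difference of -6.6 kb, and cKO replicate 2 had no island there. The difference between the sources was not tested, and the merged Dhh region had an island in only 7 of the 8 libraries. How many of all promoters differed so in width was not determined.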

How the results depend on the processing

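Islands were called separately in each library, reads outside them are unknown, and 2 libraries a group allow no call from coverage. Of the count results, the number of pathway regions past an FDR of 0.05 in neurosphere H3K27me3 by genotype rose from 0 to 2 with DESeq2 and ranged from 0 to 4 when each replicate was left out in turn, which leaves 1 arm with a single library. By source, it fell from 1 to 0 for H2AK119ub1 with limma on density and with Ctrl libraries only (leave-one-out range 0 to 1), and from 1 to 0 for H3K27me3 with limma on density (leave-one-out range 1 to 2). With DESeq2 the regions called among all were 734 in neurosphere H3K27me3, 83 in neurosphere H3K36me2, 32 in neurosphere H2AK119ub1, 17 in hippocampal H3K36me2 and 3 in hippocampal H3K27me3, where edgeR called 0 in each; by source for H3K36me2 they were 1051 against 501. Leaving out a replicate gave 0 to 16 regions in hippocampal H2AK119ub1, 0 to 37 in hippocampal H3K27me3, 0 to 567 in neurosphere H2AK119ub1, 0 to 2853 in neurosphere H3K27me3 and 0 to 2463 in neurosphere H3K36me2. By source, limma on density called 0 regions for H2AK119ub1 (319 with edgeR), 556 for H3K27me3 (1008) and 0 for H3K36me2, and Ctrl libraries alone gave 0 for H2AK119ub1 and 1561 for H3K36me2; leaving out a replicate gave 156 to 530 for H2AK119ub1 and 16 to 1662 for H3K36me2. Without TMM the median of all neurosphere H3K27me3 regions moved from 0.01 to 0.28 (log2), and Shh was at -1.60. Of the fold changes printed, that of Gli3 in hippocampal H2AK119ub1 turned, to 0.22 for density alone. Among the regions whose fold changes are not printed the direction was less stable: in hippocampal H3K27me3, 4 of 5 were lower in cKO, and 0 of 5 without Ctrl replicate 2 or without cKO replicate 1. The mean promoter difference by source for H3K27me3, neurospheres minus hippocampus, went from -9.16 to -29.5 percentage points at equal covered length. The mean gene body difference went from 1.86 to -9.08 for H3K27me3 and from 16.2 to 2.47 for H3K36me2. The mean promoter difference for hippocampal H3K36me2 by genotype moved from -0.0264 to 0 within 1 kb of the start and ranged from -0.0528 to 0 (leave-one-out; all others -0.0264). The other 209 comparisons of a main value with an alternative kept their direction and side of the threshold or moved by less than the spread between libraries. The cause was not tested where none is given.

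As to pairing, samples with the same replicate number deviated together with correlations of -0.322 to 0.327 over regions, and the labels give no shared litter or day, so the numbers were taken as names only. With the replicate block the number of pathway regions called by genotype in neurosphere H3K27me3 was 0, as without it, and Shh was at -1.87; 9 of all hippocampal H3K27me3 regions were called, against 0.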

Other observations

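Around Gli2, H3K27me3 islands away from the promoter were still called in every neurosphere library. An island upstream of the gene ran from -13.8 to -7.98 kb of the start in Ctrl replicate 1 (386 counts) and from -13.8 to -8.18 kb in Ctrl replicate 2 (254 counts). In cKO it ran from -13.4 to -9.98 kb (166 counts) and from -13.6 to -8.58 kb (181 counts). Inside Gli2 the widest islands were 36.2 kb in Ctrl replicate 1 and 23.8 kb in Ctrl replicate 2, against 8.4 and 4.8 kb in cKO. At Gli1, islands that began inside the gene and ran past its end held 2062 counts in Ctrl replicate 2, 1314 in cKO replicate 1 and 1205 in cKO replicate 2. In Ctrl replicate 1 a single island of 30.0 kb with 2981 counts joined the start and this stretch.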
